A study of Arabidopsis thaliana with 15 samples.

Results

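Heat shock factor and chaperone genes were followed in leaf 6 of Arabidopsis plants after leaf 1 had been treated with glutathione (GSH), treated with glutamate (Glu) or wounded. They were taken from the deposited expression table by gene ID. The members are HSFA2 (AT2G26150), HSP101 (AT1G74310), HSP70-4 (AT3G12580), HSP90.1 (AT5G52640), HSP17.6II (AT5G12020), HSP17.4 (AT3G46230), HSP17.6C (AT1G53540), HSP21 (AT4G27670), HSP23.6 (AT4G25200) and MBF1C (AT3G24500), 10 of the 32833 genes in the table. All 15 libraries came from leaf 6 of wild-type (Col-0) plants 22 to 24 days old, grown on MS medium. Each of 5 groups held 3 libraries. Mock plants received no small molecule, GSH and Glu plants were sampled 1 h after 100 mM of either compound had been put on leaf 1, wounding mock plants were sampled before any wounding, and wounding plants were sampled 1 h after leaf 1 was wounded. No group is labelled as having received the solution alone, and per the study's methods the compounds were applied at a cut edge of leaf 1. Nothing in the labels says that the libraries of a group came from separately grown plants, so the p values below measure only the spread between these libraries.

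In the heat shock response, heat shock factors bind DNA elements built from repeated GAA and TTC units and switch on genes for chaperones. HSFA2 is a heat-inducible factor of this family that sustains the response, and MBF1C is a transcriptional coactivator needed for thermotolerance. HSP70 and HSP90 proteins help other proteins to fold, HSP101 pulls proteins out of aggregates, and small heat shock proteins hold unfolded proteins in solution. Among the small proteins studied here, HSP17.4 and HSP17.6C belong to cytosolic class I, HSP17.6II belongs to cytosolic class II, HSP21 is found in chloroplasts and HSP23.6 in mitochondria. Many of these genes are nearly silent in leaves that have not been stressed.

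The DNA upstream of the members was read to show which of them carry such an element next to the gene. In the 300 bases before the annotated start of the transcript (RefSeq models of TAIR10.1), 4 of the 10 members hold a perfect run of 3 alternating units, GAANNTTCNNGAA or its reverse complement TTCNNGAANNTTC, searched on both strands. Such a run occurs in 0.485% of the windows of 27443 protein-coding genes. Each match is printed from 5′ to 3′ on the strand of its gene, with the GAA and TTC units in capitals.
HSFA2, chr2:11135516-11135568, plus strand: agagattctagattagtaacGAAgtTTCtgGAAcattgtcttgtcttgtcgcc
HSP90.1, chr5:21352254-21352282, plus strand: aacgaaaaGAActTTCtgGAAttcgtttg
HSP17.4, first match, chr3:16984934-16984986, minus strand: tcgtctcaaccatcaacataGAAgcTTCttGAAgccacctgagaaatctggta
HSP17.4, second match, chr3:16984868-16984905, minus strand: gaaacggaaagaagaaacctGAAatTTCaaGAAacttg
HSP17.6C, chr1:19980226-19980278, plus strand: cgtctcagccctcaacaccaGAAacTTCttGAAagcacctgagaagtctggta
HSP17.4 is the only member with a pair of perfect runs. The HSP90.1 match lies within an exon of the neighbouring gene AT5G52630 and is therefore printed with fewer flanking bases. The RefSeq model of HSP90.1 begins at its coding sequence. The shorter pairs GAANNTTC or TTCNNGAA, which include every perfect run, were found in 5 of the 10 windows and in 19.3% of all windows, and the additional member was HSP21. These are matches of letters only, and binding of a factor was not measured.

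The values are FPKM, fragment numbers scaled to the length of the transcript and to the mapped fragments of the library. The number of fragments per library is not known. FPKM sums ranged from 548167 to 580837 per library, and 21090 to 21750 genes were above 0 in 14 libraries. In wounding mock replicate 1, only 18664 genes were above 0, and its lowest correlation with a replicate was 0.976, while that of the other libraries outside its group was at least 0.990. The leaf markers RBCS1A, RBCS2B, LHCB2.1, CAB3 and GLDP1 summed to between 15773 and 21575 FPKM in every library, whereas the 2 seed markers summed to at most 0.941 FPKM and the 2 flower markers to at most 0.189 FPKM. Of the 4 root markers, IRT1 and RSL4 were listed at 0 in every library and NRT2.1 did not exceed 0.0742 FPKM, whereas PYK10 was present in every library, at 25.4 to 62.2 FPKM.

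The members were divided by level into those called expressed here and those not. HSFA2 met the rule only through treated libraries, and it did not exceed 0.569 FPKM in any mock or wounding mock library. HSFA2, HSP101, HSP70-4, HSP90.1 and MBF1C had 3 or more libraries, of 15, at 1 FPKM or higher. In TAIR10.1, HSFA2 lies at chr2:11135624-11137792, HSP101 at chr1:27936508-27940369, HSP70-4 at chr3:3991117-3993886, HSP90.1 at chr5:21352557-21355147 and MBF1C at chr3:8918267-8919683. MBF1C overlaps AT3G04685, AT3G24495 and AT3G24503 and shares 12.2% of its runs of 50 bases with other genes, and HSP101 overlaps AT1G74300 and shares 1.79%, so a part of their reads may belong to neighbours. The small heat shock protein genes HSP17.6II, HSP17.4, HSP17.6C, HSP21 and HSP23.6 did not, and 38 of their 75 values were listed at 0. Only 1 of these values reached 1 FPKM, and it belonged to HSP17.6II in wounding mock replicate 1, at 1.08 FPKM.

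HSFA2 had the lowest level of the expressed members before treatment. It stood at 0.548, 0.569 and 0.416 FPKM in the mock libraries and at 0.200, 0.233 and 0.259 FPKM in the wounding mock libraries. After wounding it reached 5.86, 7.91 and 5.93 FPKM, after GSH 0.122, 5.97 and 4.14 FPKM, and after Glu 2.47, 0.810 and 2.34 FPKM. All wounding and all Glu libraries lay above their controls, while the GSH libraries lay on both sides of the mock libraries.

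HSP101, the disaggregating chaperone, was at 2.52, 2.78 and 2.54 FPKM in mock, at 1.76, 6.43 and 5.25 FPKM after GSH and at 4.07, 3.10 and 4.37 FPKM after Glu. It was at 2.53, 2.22 and 2.098 FPKM in wounding mock and at 9.42, 9.19 and 9.17 FPKM after wounding. Relative to their mean, the wounding values of HSP101 lay closer together than those of any other expressed member.

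HSP70-4, a cytosolic HSP70, had the highest level of the expressed members after wounding. It was at 10.2, 9.51 and 8.99 FPKM in mock, at 4.30, 75.6 and 52.2 FPKM after GSH and at 18.0, 18.14 and 14.4 FPKM after Glu. It was at 5.22, 9.05 and 11.2 FPKM in wounding mock and at 93.7, 79.0 and 84.4 FPKM after wounding. GSH replicate 1 was the lowest of all 15 libraries for this gene, and GSH replicates 2 and 3 were closest to the wounding libraries.

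HSP90.1, the heat-inducible cytosolic HSP90, was at 6.38, 5.66 and 5.82 FPKM in mock, at 4.75, 52.0 and 32.9 FPKM after GSH and at 10.9, 10.8 and 8.07 FPKM after Glu. It was at 5.78, 5.64 and 4.74 FPKM in wounding mock and at 30.4, 26.46 and 27.4 FPKM after wounding. It was the only expressed member for which GSH replicates 2 and 3 both lay above every wounding library.

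MBF1C was at 5.48, 6.02 and 7.12 FPKM in mock, at 4.86, 20.7 and 16.4 FPKM after GSH and at 12.7, 11.7 and 11.9 FPKM after Glu. It was at 5.02, 4.48 and 4.42 FPKM in wounding mock and at 32.4, 28.3 and 26.3 FPKM after wounding. For MBF1C, all mock libraries also lay above all wounding mock libraries, as they did for 7.49% of the genes tested between these groups.

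**Figure D1:**
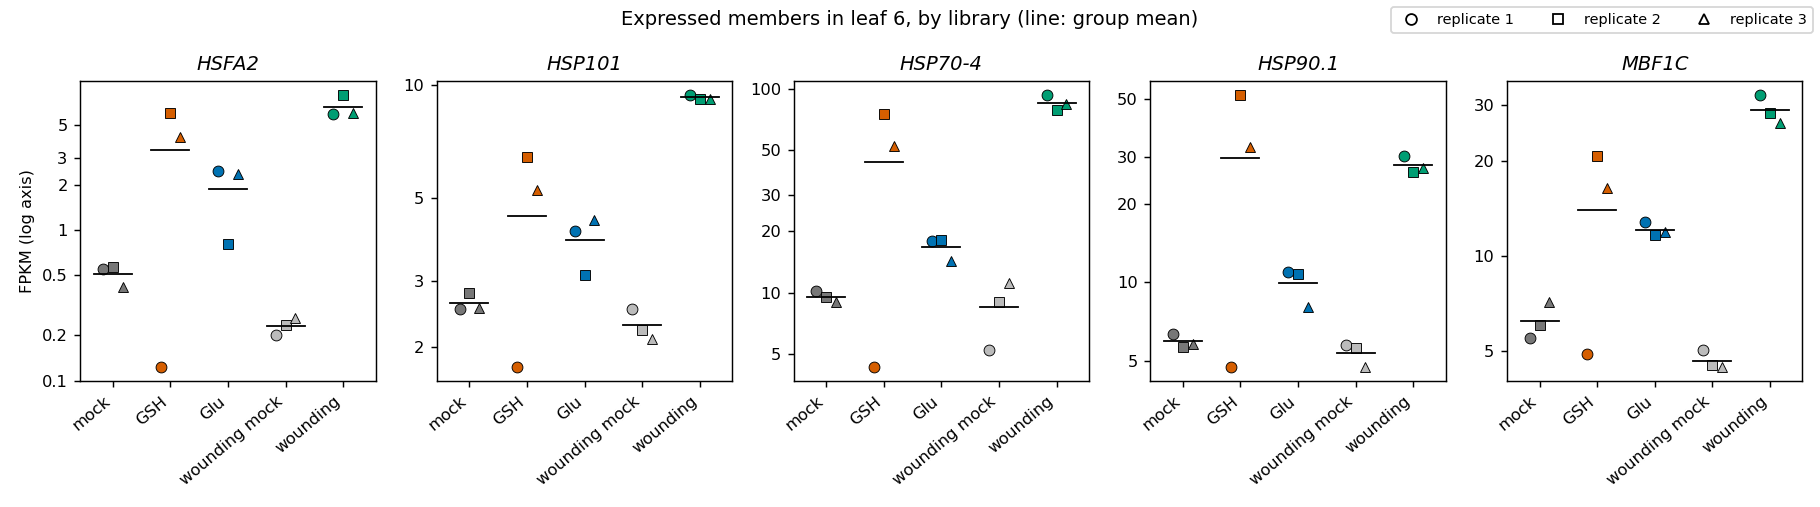
FPKM (log axis, a separate range per panel) of the 5 expressed members in each of the 15 libraries of leaf 6, with symbols for the replicate numbers and a line at each group mean. The wounding libraries lie above the wounding mock libraries in every panel, and GSH replicate 1 lies below all mock libraries while GSH replicates 2 and 3 lie above them.

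The order of the group means was wounding, GSH, Glu, mock and wounding mock for HSFA2, HSP101, HSP70-4 and MBF1C. For HSP90.1, GSH and wounding changed places, with means of 29.9 and 28.1 FPKM and ranges that overlapped. Neighbouring groups with ranges that overlapped were GSH and Glu for HSFA2, HSP101, HSP70-4 and MBF1C, wounding and GSH for HSFA2, and mock and wounding mock for HSP101, HSP70-4 and HSP90.1. Glu and mock did not overlap for any of the 5 expressed members.

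The wounding comparison asked how the members differ in leaf 6 after leaf 1 was wounded. All 5 expressed members rose, from 4.06-fold for HSP101 to 28.5-fold for HSFA2 in mean FPKM. The ratio of HSFA2 divides by a low wounding mock mean of 0.231 FPKM, and its mean in mock, the other control, was 0.511 FPKM. HSP70-4 rose 10.1-fold, from 8.47 ± 3.01 to 85.7 ± 7.44 FPKM (SD, n = 3 libraries per group). MBF1C rose 6.25-fold, from 4.64 ± 0.329 to 29.0 ± 3.11 FPKM, and HSP90.1 rose 5.22-fold, from 5.38 ± 0.564 to 28.1 ± 2.07 FPKM (SD, n = 3).

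These differences were tested with limma on log2(FPKM + 1), on which fold changes of weakly expressed genes are smaller than on FPKM itself. A gene was called when its p, adjusted over all tested genes by Benjamini-Hochberg, was below 0.05 and its log2 fold change exceeded 1 in size. The log2 fold change of HSP70-4 was 3.24 with an SE, the standard error, of 0.23 (limma, adjusted p = 7.9e-05). The log2 fold changes of MBF1C, HSP90.1 and HSP101 were 2.41, 2.19 and 1.65, with adjusted p values from limma of 1.2e-05, 1.8e-05 and 0.00010. These 4 members were called higher, where 5.28% of the 16803 tested genes were called higher and 2.73% lower. Their groups did not overlap, which held for 14.3% of all tested genes in this direction. HSFA2 passed the filter on low values only through its wounding libraries and is therefore not counted among them. In the fit with no filter, which does not depend on those libraries, its log2 fold change was 2.61 with an SE of 0.15 (limma, adjusted p = 0.00033). An exact permutation test on a single gene cannot give a p below 0.1 with 3 libraries against 3. Every alternative that was run, the fit without wounding mock replicate 1 included, called these 4 members higher. HSFA2 was called wherever it was tested, and it dropped out of the test when any 1 wounding library was left out.

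Marker genes of leaf cells moved in both directions after wounding. Of the 5 leaf markers, LHCB2.1 and CAB3 were called lower, with log2 fold changes of -2.36 and -1.04, and the summed level of the list was 20796 to 21575 FPKM in wounding mock and 16474 to 17508 FPKM in wounding. The epidermal marker ATML1 also fell by 1.00 on the log2 scale. By the adjusted p alone, the phloem marker SUC2 was lower (log2 fold change -0.60, limma, adjusted p = 0.0083) and the guard cell marker FAMA higher (0.53, adjusted p = 0.021). The 3 genes together, of which SUC2 has the highest level, summed to between 150 and 171 FPKM in wounding mock and to between 105 and 117 FPKM after wounding. The 11 circadian clock genes summed to between 370 and 425 FPKM in wounding mock and to between 350 and 351 FPKM after wounding. Of the 8 tested, 1, BOA, was called higher (log2 fold change 1.02). By the adjusted p alone, 2 were higher and 3 lower, where 8.76% and 10.9% of all tested genes were. Their median log2 fold change was -0.33, where that of all tested genes was -0.07. Wounding mock was sampled before wounding and wounding 1 h after it, so time of day and wounding cannot be told apart. The part of these shifts in the rise of the members was not tested. In whole leaves, fewer cells of a type and less RNA per cell cannot be told apart.

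The GSH comparison asked whether the members changed in leaf 6 when GSH was given to leaf 1. Mean FPKM was 6.67 times that of mock for HSFA2, 5.02 times for HSP90.1, 4.61 times for HSP70-4, 2.25 times for MBF1C and 1.71 times for HSP101. None of the 4 tested members was called, and for none of them did the GSH and mock groups separate. Of all tested genes, 18.6% had every GSH library above every mock library. HSP90.1 differed by 1.65 on the log2 scale with an SE of 0.66 (limma, adjusted p = 0.20) and HSP70-4 by 1.40 with an SE of 0.81 (adjusted p = 0.37). MBF1C differed by 0.86 with an SE of 0.40 (adjusted p = 0.27) and HSP101 by 0.48 with an SE of 0.31 (adjusted p = 0.43). At an unadjusted p under 0.05, 1 of the 4 was higher, while 3442 of the 16878 tested genes were under it in either direction. Over all 16878 tested genes, 1.18% were called higher and 0.0355% lower. HSFA2 had only 2 libraries at or above 1 FPKM in this comparison and was not tested. With no filter it differed by 1.18 on the log2 scale with an SE of 0.69 (limma, adjusted p = 0.47).

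The 3 GSH libraries did not behave alike for the members. In GSH replicate 1, all 4 tested members were below all 3 mock libraries, as were 26.8% of the tested genes. In GSH replicate 2 all 4 were above all 3 mock libraries, as were 46.4% of the tested genes, and in GSH replicate 3 all 4 were again above, as were 34.3%. The untested HSFA2 showed the same positions. Against the mock mean, HSFA2 stood at 0.239 times in GSH replicate 1, 11.7 times in replicate 2 and 8.10 times in replicate 3. HSP70-4 stood at 0.450, 7.91 and 5.46 times, and HSP90.1 at 0.797, 8.74 and 5.53 times. HSP101 stood at 0.674, 2.46 and 2.01 times the mock mean in the same order.

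The SD of log2(FPKM + 1) among the GSH libraries was 2.09 for HSP70-4, 1.70 for HSP90.1, 1.01 for MBF1C and 0.76 for HSP101. Among all genes tested, these spreads ranked between the 99.1 and the 99.96 percentile. The members were chosen with earlier results of these data known, the unlike GSH libraries among them. This rank therefore describes the members and is no test. Among the mock libraries the SD of the same genes was between 0.06 and 0.16. For each of the 4 genes the spread was thus larger among the GSH than among the mock libraries.

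Without GSH replicate 1, HSP70-4, HSP90.1 and MBF1C were called higher, with log2 fold changes of 2.60, 2.61 and 1.44 (adjusted p = 2.9e-05, 5.0e-05 and 0.00038 from limma). In the same fit HSP101 had a log2 fold change of 0.92 (adjusted p = 0.0036), under the threshold on the fold change, and 1.48% of the tested genes were called higher. GSH replicate 1 held the lowest GSH value of each of these members, so leaving it out raises their differences. These p values are therefore no separate test of GSH. Without GSH replicate 2 or 3, or without any mock library, no member was called. GSH replicate 1 is labelled as treated, and 2 jasmonate genes lay about as far above mock in it as in the other GSH libraries. JAZ10, a repressor of jasmonate signalling that is itself induced by jasmonate, was at 8.86, 8.91 and 9.28 FPKM in the GSH libraries and at 0.470, 0.525 and 0.787 FPKM in mock. OPR3, a jasmonate synthesis enzyme, was at 152, 171 and 155 FPKM against 54.5, 57.0 and 51.3 FPKM. These 2 genes were chosen after their values were seen.

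**Figure D2:**
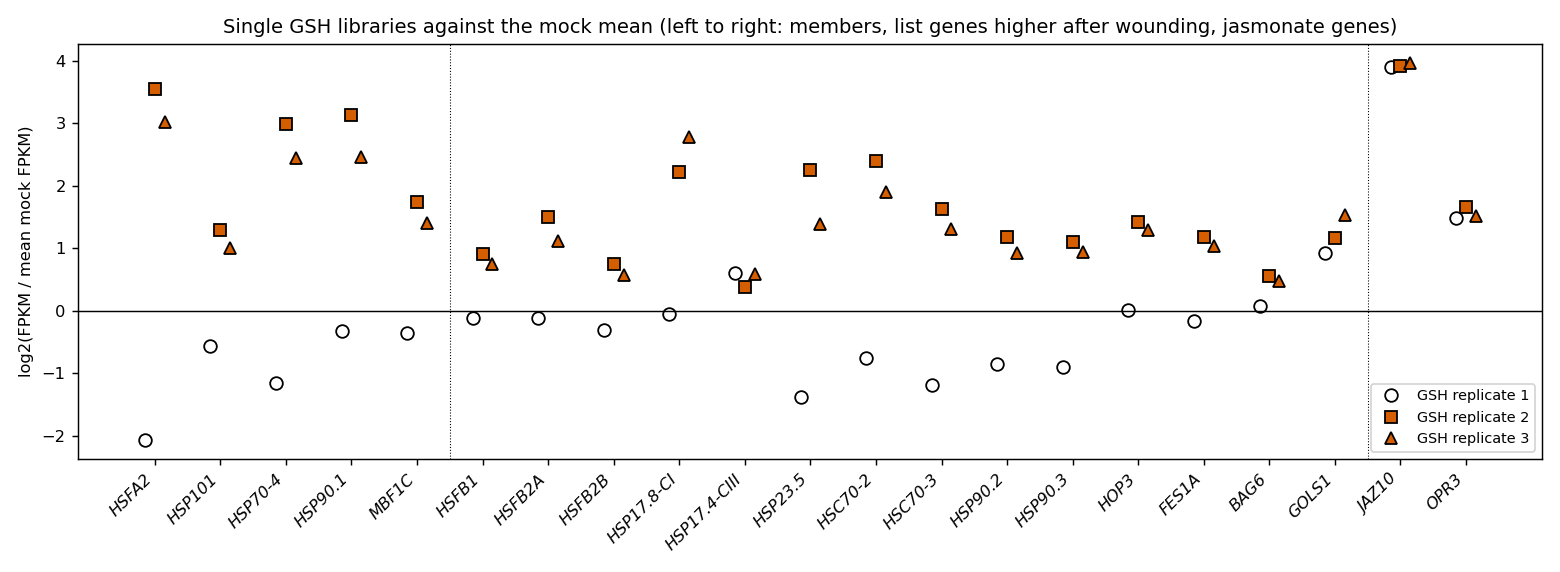
log2 of the FPKM in each GSH library over the mean mock FPKM, for the 5 expressed members, for the 14 genes of the other heat lists that were called higher after wounding, and for JAZ10 and OPR3. Every open circle of a member (GSH replicate 1) lies below 0 and every filled symbol above it, whereas the 3 libraries nearly coincide for JAZ10 and OPR3.

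The Glu comparison asked the same question for glutamate and used the same mock libraries. The expressed members had higher means after Glu than in mock, by less than after wounding, and none was called. Mean FPKM was 3.67 times that of mock for HSFA2, 1.95 times for MBF1C, 1.76 times for HSP70-4, 1.67 times for HSP90.1 and 1.47 times for HSP101. MBF1C went from 6.21 ± 0.833 to 12.1 ± 0.569 FPKM, and HSP70-4 from 9.55 ± 0.593 to 16.8 ± 2.12 FPKM (SD, n = 3). On the log2 scale MBF1C differed by 0.87 with an SE of 0.10 (limma, adjusted p = 0.0015) and HSP70-4 by 0.75 with an SE of 0.10 (adjusted p = 0.0034). HSP90.1 differed by 0.64 with an SE of 0.12 (adjusted p = 0.013) and HSP101 by 0.42 with an SE of 0.13 (adjusted p = 0.076).

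None of the 4 tested members passed both thresholds, where 1.15% of the 16834 tested genes were called higher and 0.0772% lower. By the adjusted p alone, 3 of the 4 were higher, as were 7.13% of all tested genes, while 3.04% were lower. This did not hold in every alternative. The adjusted p from limma reached 0.15 for MBF1C, 0.61 for HSP70-4 and 0.58 for HSP90.1, while their log2 fold changes stayed at 0.57 or above. All 4 tested members were under an unadjusted p of 0.05, as were 4532 of all 16834 tested genes in either direction. The Glu and mock groups did not overlap for any of the 4, the Glu libraries being higher. Of all tested genes, 32.3% did not overlap in either direction, and 14.6% had every Glu library lower. HSFA2, untested for its low level, differed by 0.87 on the log2 scale with no filter (SE 0.26, limma, adjusted p = 0.14). Against the wounding mock libraries in place of mock, MBF1C was called (log2 fold change 1.22, adjusted p = 0.0017 from limma), and 2.31% of all genes were called higher.

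**Figure D3:**
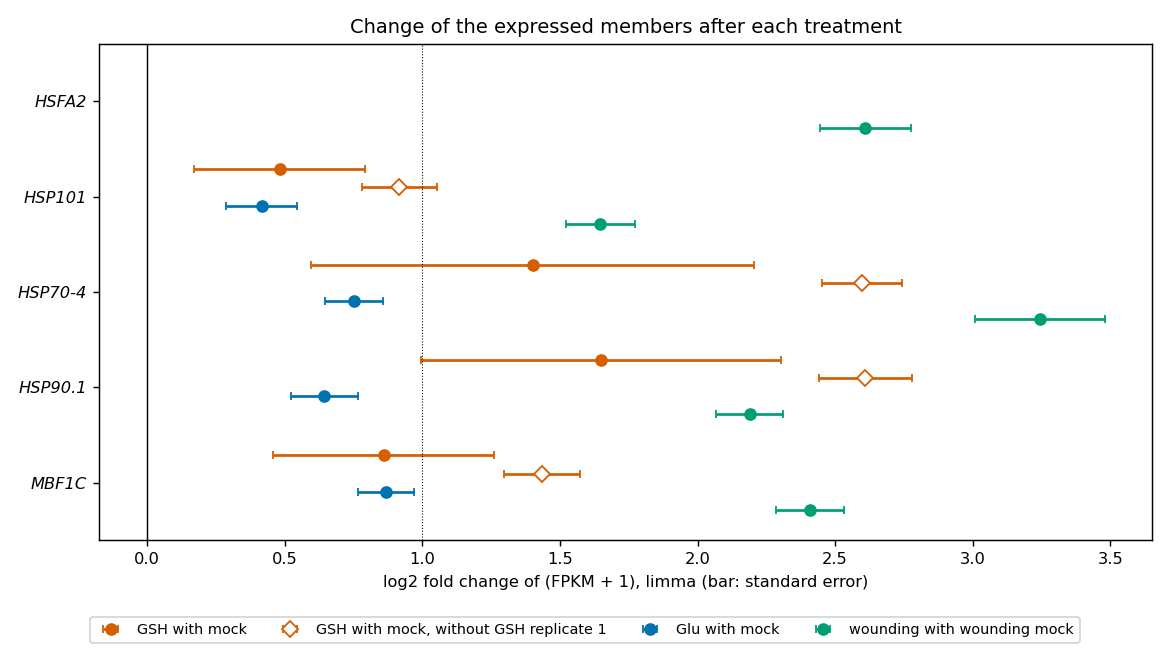
log2 fold change of (FPKM + 1) of the expressed members after GSH, Glu and wounding, with the standard error from limma as bars and a dotted line at the fold change threshold of 1. The open diamonds give GSH without replicate 1. HSFA2 was tested only for wounding, where it passed the filter only through its wounding libraries. All wounding points lie at 1.65 or above, and all Glu points lie below 1.

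In the direct comparison of GSH with Glu, 0 of the 5 tested members were called, where 0.0295% of the 16953 tested genes were called higher and 0.0354% lower. None of the 5 was at an unadjusted p under 0.05, while 1487 of all tested genes were, in either direction. The intervals were wide. The log2 difference was 1.01 for HSP90.1 (95% interval -0.54 to 2.55), 0.65 for HSP70-4 (-1.24 to 2.54) and 0.31 for HSFA2 (-1.07 to 1.69). It was 0.07 for HSP101 (-0.68 to 0.81) and -0.01 for MBF1C (-0.94 to 0.92). For HSFA2 and HSP70-4 the intervals reach past 1 log2 unit in both directions. Without GSH replicate 1, HSP70-4 (1.85, adjusted p = 0.0062 from limma) and HSP90.1 (1.97, adjusted p = 0.0084) were called higher after GSH, where 0.0893% of all genes were. This fit leaves out the lowest GSH value of both genes, so it is no separate test.

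The difference between treatment effects was tested in fits of 4 groups. The Glu effect was smaller than the wounding effect for the 5 tested members, of which HSFA2 passed the filter through its Glu and wounding libraries only, where 4.19% of the 17403 tested genes were called lower and 3.11% higher. On the log2 scale the difference was -2.49 for HSP70-4 (adjusted p = 5.5e-05 from limma), -1.74 for HSFA2 (0.0022, and 0.0066 with no filter), -1.55 for HSP90.1 (6.2e-05), -1.54 for MBF1C (2.8e-05) and -1.23 for HSP101 (0.00035). In a fit of all 15 libraries, in which the GSH libraries also set the spread, 2 of the 5 were called, HSP101 and MBF1C, and the adjusted p was 0.10 for HSFA2, 0.093 for HSP70-4 and 0.20 for HSP90.1. In that fit 4.2% of all genes were called lower.

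The GSH effect minus the wounding effect was -1.84 for HSP70-4, -1.55 for MBF1C, -1.43 for HSFA2, -1.17 for HSP101 and -0.54 for HSP90.1, where the median of all 17415 tested genes was 0.13. None of the 5 was called by limma, and 2 were under an unadjusted p of 0.05, as were 4492 of all 17415 tested genes in either direction. Of all tested genes, 3.9% were called lower and 3% higher, which are 680 and 522 genes, and with median ratio scaling these were 770 and 382. MBF1C and HSP101 had adjusted p values of 0.061 and 0.068 from limma. Without GSH replicate 2, both were called, with differences of -1.92 (adjusted p = 0.019 from limma) and -1.44 (0.022). In this fit 3.81% of all genes were called lower. GSH replicate 2 held the highest GSH value of both genes, so leaving it out lowers their GSH effects, and this fit is no separate test. With all 15 libraries in the fit, both were called as well (adjusted p = 0.033 and 0.044), and 3.98% of all genes were called lower. Without GSH replicate 1, the difference of HSP90.1 turned to 0.42 (limma, adjusted p = 0.29), and those of the other members were between -0.97 for MBF1C and -0.62 for HSFA2, none of them called. GSH and wounding thus have not been shown to differ for any of the 5 members. MBF1C and HSP101 were each called in 3 of 21 alternative settings.

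The mock and wounding mock groups were compared because they served as separate controls. None of the 4 tested members was called, and 0.227% of the 16739 tested genes were called higher in mock and 0.00597% lower. Under an unadjusted p of 0.05 were 993 of all tested genes, in either direction, and 1 of the 4 members. That member was MBF1C, at 6.21 ± 0.833 FPKM in mock and 4.64 ± 0.329 FPKM in wounding mock (SD, n = 3), with a log2 difference of 0.35 (95% interval 0.03 to 0.67, adjusted p = 0.80 from limma). HSP70-4, HSP101 and HSP90.1 differed by 0.21, 0.14 and 0.13. HSFA2, too low to be tested here, had a mock mean 2.22 times its wounding mock mean, without overlap, and with no filter it differed by 0.29 on the log2 scale (limma, adjusted p = 0.31). Its ratios after wounding and after GSH or Glu thus rest on unequal control levels.

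The 5 small heat shock protein members passed the filter in no comparison. HSP17.6II was at 0.0518, 0 and 0 FPKM in mock, at 0.0556, 0.940 and 0.298 FPKM after GSH and at 0.204, 0.190 and 0.447 FPKM after Glu. It was at 1.08, 0.0592 and 0.177 FPKM in wounding mock and at 0.332, 0.644 and 0.463 FPKM after wounding. Its wounding values lay within the range of the wounding mock values, of which the highest came from the library with the fewest genes above 0.

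HSP17.4 ranged from 0.0436 to 0.448 FPKM in mock, from 0 to 0.413 after GSH, from 0 to 0.315 after Glu, from 0 to 0.183 in wounding mock and from 0.241 to 0.589 after wounding. The wounding libraries of HSP17.4 lay above the wounding mock libraries, but with no filter on low values they differed by 0.42 on the log2 scale (SE 0.11, limma, adjusted p = 0.074). HSP17.4 overlaps AT3G07365 and AT3G46220 in the annotation, 61.5% of its runs of 50 bases also occur in AT3G07365, and whether reads were counted by strand is not given in the sources used here, so its values are uncertain. HSP17.6C, whose upstream window holds 1 perfect run of GAA and TTC units, reached 0.547 FPKM in mock and at most 0.0531 FPKM after wounding. HSP21 was listed at 0 in 14 libraries and at 0.0589 FPKM in GSH replicate 2, and HSP23.6 did not exceed 0.135 FPKM in any library. Carrying the perfect run did not separate the expressed members from the others, since HSFA2 and HSP90.1 were expressed and HSP17.4 and HSP17.6C were not. HSFA2 counts as expressed only through its treated libraries.

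**Figure D4:**
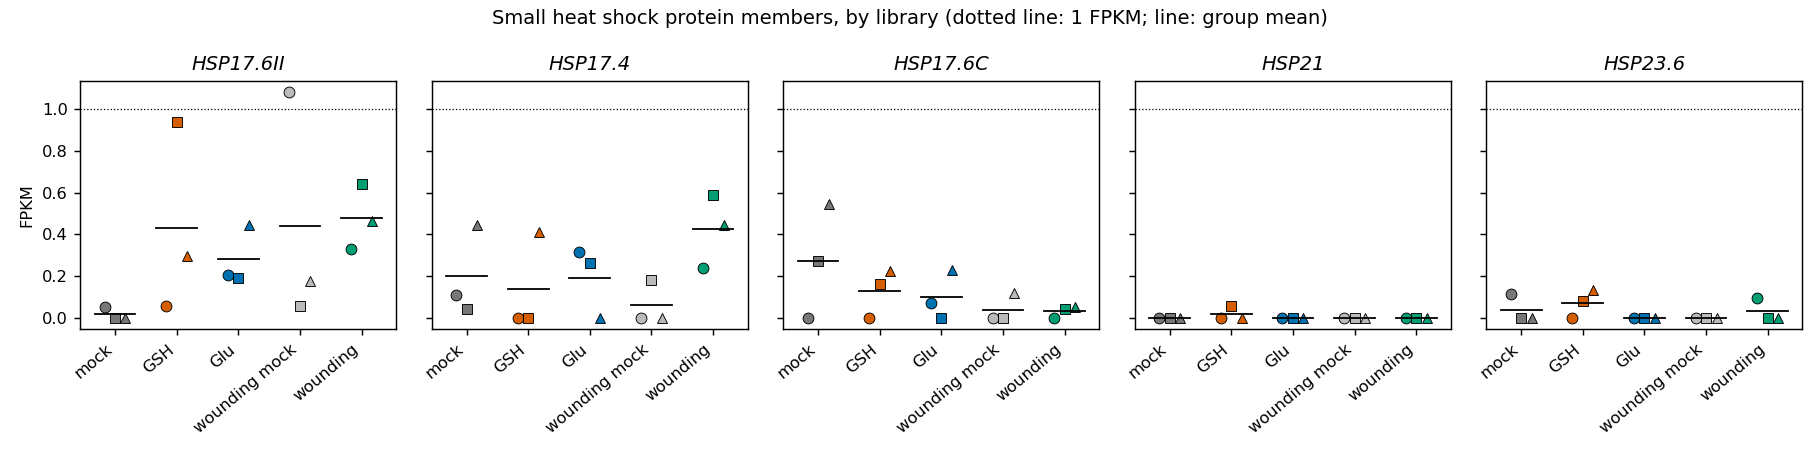
FPKM (linear axis) of the 5 small heat shock protein members in each library, with symbols for the replicate numbers (circle 1, square 2, triangle 3), a line at each group mean and a dotted line at 1 FPKM. A single value, that of HSP17.6II in wounding mock replicate 1, lies above 1 FPKM.

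Other genes of the heat shock response were taken from 5 lists with 70 genes in all. They comprised 20 other heat shock factors, 12 other small heat shock proteins, 14 other HSP70 proteins, 8 other HSP90 and HSP100 proteins, and 16 co-chaperones and heat response genes. After wounding, 14 of the 56 tested genes were called higher and 0 lower, where 5.28% and 2.73% of all tested genes were. These shares also stand beside the counts of each list below. Of the 14, HSP17.8-CI passed the filter only through its wounding libraries. The median log2 fold change of the 56 was 0.40, where the median of all tested genes was -0.07. In fits that left out 1 library, between 10 and 14 were called.

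Among the heat shock factors, 3 of 14 rose after wounding, all of class B, whose members lack the activation domain of class A. HSFB1 (AT4G36990) had a log2 fold change of 1.90, HSFB2A (AT5G62020) of 1.63 and HSFB2B (AT4G11660) of 1.04 (adjusted p = 0.00020, 0.0048 and 0.0021 from limma). HSFB2B stood just below the fold threshold without wounding mock replicate 2 (0.99), wounding mock replicate 3 (0.98) or wounding replicate 3 (1.00). HSFB2B also shares 18.6% of its runs of 50 bases with the overlapping gene AT4G05910.

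Among the small heat shock proteins, 3 of 8 rose after wounding. HSP17.8-CI (AT1G07400), of cytosolic class I like HSP17.4, was at 0.695, 0.355 and 0.213 FPKM in wounding mock and at 4.17, 5.67 and 4.21 FPKM after wounding, with a log2 fold change of 2.00. It passed the filter only through its wounding libraries, and with no filter it was called as well (adjusted p = 0.0022 from limma). HSP23.5 (AT5G51440), a mitochondrial protein like HSP23.6, was at 1.16, 0.826 and 1.01 FPKM and then at 5.52, 5.44 and 5.12 FPKM, with a log2 fold change of 1.67. After wounding, these relatives thus lay above the members of their classes. They are named because they were called after wounding, and HSP17.8-CI was below 1 FPKM in every wounding mock library. HSP17.4-CIII (AT1G54050) had a log2 fold change of 1.47 and lost its call without wounding replicate 2 (adjusted p = 0.059) or 3 (0.064 from limma).

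Among the HSP70 proteins, 2 of 12 rose after wounding, the cytosolic HSC70-2 (AT5G02490) by a log2 fold change of 1.33 and HSC70-3 (AT3G09440) by 2.07. Among the HSP90 and HSP100 proteins, 2 of 8 rose, the cytosolic HSP90.2 (AT5G56030) by 1.41 and HSP90.3 (AT5G56010) by 1.69. HSP90.2 and HSP90.3 share 18.8% and 23.9% of their runs of 50 bases with other genes, so reads may have been split between them, and HSC70-3 shares 12.9% with the overlapping gene AT3G09430. Among the co-chaperones and heat response genes, 4 of 14 rose. They were HOP3 (AT4G12400), which links HSP70 to HSP90, by 1.70, BAG6 (AT2G46240) by 1.34, FES1A (AT3G09350), which binds HSP70, by 1.02, and GOLS1 (AT2G47180), a galactinol synthase, by 5.86. GOLS1 was at 2.79, 3.64 and 2.39 FPKM in wounding mock and at 237, 224 and 216 FPKM after wounding. HOP3 lost its call without wounding replicate 2 (adjusted p = 0.067 from limma), without wounding replicate 3 (0.065) or with no filter (0.050), and FES1A fell below the fold threshold without wounding mock replicate 1 (0.99), wounding mock replicate 2 (0.93) or wounding replicate 1 (0.96).

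After GSH, 1 of the 54 tested list genes was called, GOLS1, at a log2 fold change of 1.16 (adjusted p = 0.0057 from limma), where 1.18% of all tested genes were called higher. The fold change of GOLS1 fell just below 1 without GSH replicate 3, and its adjusted p was 0.066 with no filter. Without GSH replicate 1, 9 list genes were called higher, as were 1.48% of all tested genes, and as for the members this fit is no separate test of GSH. The GSH libraries also differed in the lists, though not every list lay low in GSH replicate 1. In GSH replicate 1, 27 of the 54 genes lay below all mock libraries and 8 above, where 26.8% and 35.3% of all tested genes did. In GSH replicate 2, 3 lay below and 43 above, against 21.2% and 46.4% of all tested genes. In GSH replicate 3, 1 lay below and 34 above, against 25.2% and 34.3%. By list, 11 of 12 HSP70 proteins and 6 of 8 HSP90 and HSP100 proteins lay below all mock libraries in GSH replicate 1. None of these lay above. Of the heat shock factors, 3 of 14 lay below and 3 above, and of the small heat shock proteins, 2 of 6 below and 2 above. Of the co-chaperones and heat response genes, 5 of 14 lay below and 3 above. The shares of all tested genes were the same 26.8% and 35.3%. After Glu, 0 of 55 list genes were called, where 1.15% of all tested genes were called higher. By the adjusted p alone, 10 list genes were higher and 2 lower, against 7.13% and 3.04% of all tested genes. At an unadjusted p under 0.05 (limma), 21 list genes were higher and 5 lower, while 4532 of all 16834 tested genes were under it in either direction. The median log2 fold change of the lists was 0.21 after GSH and 0.21 after Glu, where those of all tested genes were 0.04 and 0.00. GOLS1 was also higher in mock than in wounding mock (log2 difference 1.79, adjusted p = 0.0089 from limma), a call that was lost without any 1 of the 3 mock libraries (adjusted p 0.053 to 0.11).

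**Figure D5:**
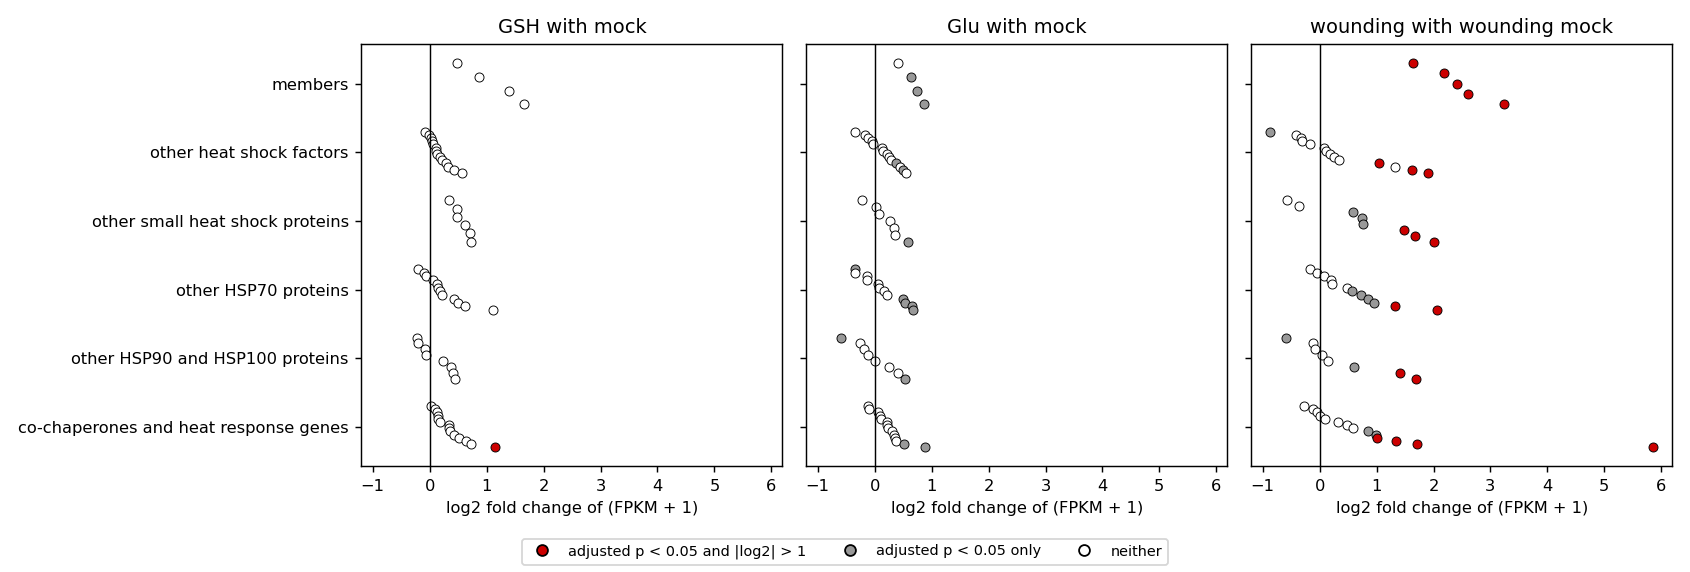
log2 fold change of (FPKM + 1) of every tested gene of the members and of the 5 other heat lists, after GSH, Glu and wounding (1 point per gene, sorted within a list). Red points passed both thresholds, and they number 1 after GSH (GOLS1), 0 after Glu and 19 after wounding, 5 of them members. Of the 19, HSFA2 and HSP17.8-CI passed the filter only through their wounding libraries.

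Over the 15 libraries, log2(FPKM + 1) of the 5 expressed members correlated with Pearson's r between 0.896 (HSP101 with HSP90.1) and 0.975 (HSP101 with MBF1C). The libraries share groups, so these values describe the pattern over treatments and are no test. Among 17571 genes with at least 1 FPKM in 3 libraries, the gene most like HSFA2 was AT3G07090 (r = 0.986), annotated as a PPPDE thiol peptidase, followed by AT1G66080 (0.959) and AT2G20560 (0.957), a DNAJ heat shock family protein. HSP101 was most like AT3G14200 (0.982), a DnaJ-domain protein, then AT3G07090 (0.968) and AT1G70780 (0.965). HSP70-4 was most like J3 (AT3G44110, 0.979), a DNAJ homologue, then AT1G71000 (0.973), another DnaJ-domain protein, and AT2G20560 (0.971). HSP90.1 was most like HSC70-2 (AT5G02490, 0.954), then NAC2 (AT5G04410, 0.941) and AT3G07090 (0.937). MBF1C was most like UBQ10 (AT4G05320, 0.975), a polyubiquitin gene, then AT3G07090 (0.963) and AT2G20560 (0.959). AT3G07090 was thus among the 3 nearest genes of 4 of the 5 members.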

How the data were processed

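Leaf 6 RNA was sequenced in 15 libraries (NEBNext Ultra, paired-end reads). Per the labels and the study's methods, the authors trimmed reads with cutadapt and Trimmomatic, aligned them to TAIR10 with HISAT2 and computed FPKM with StringTie, and their own DEGs came from DESeq2 1.16.1. The deposited values are FPKM, already normalized for transcript length and mapped fragments. Depth per library is unknown, so no counting interval is given. Here, log2(FPKM + 1) was fitted with limma 3.58.1 (R 4.3.3, variance trend), using only the groups of each comparison and genes for which 3 or more of these libraries were at 1 FPKM or higher. The method was tested on simulated data. Named genes were all members, list genes called in a comparison of 2 groups, and the 3 genes most correlated with each expressed member. Alternatives changed the pseudocount, filter, scaling, variance trend, control group, libraries, threshold and replicate block. The members and lists were chosen with earlier results of these data known. Upstream windows and gene positions are from RefSeq TAIR10.1. No protein sequence was used.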

Additional observations from a re-analysis of the deposited data

Results flagged for a closer look

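The effects of different treatments on the same gene were compared by a test of the difference itself, and these differences passed the thresholds in limma (log2 scale, treatment minus its own control, then treatment minus wounding). For Glu minus wounding, the expressed members differed by -2.49 (HSP70-4), -1.74 (HSFA2), -1.55 (HSP90.1), -1.54 (MBF1C) and -1.23 (HSP101). With all 15 libraries in the fit, HSP70-4, HSFA2 and HSP90.1 lost this call. HSFA2 passed the filter only through its Glu and wounding libraries. Glu and wounding have separate control groups, and the labels do not say whether these were grown together.

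Of 57 tested list genes, 9 were called lower and 1 higher, where 4.19% and 3.11% of all tested genes were. The 1 higher was HSFA4A at 1.24, which was named after its value was seen. Glu minus wounding was -4.97 for GOLS1, -1.89 for HSP23.5, -1.496 for HSP17.8-CI, -1.46 for HSFB1, -1.39 for HSC70-3, -1.37 for HOP3, -1.15 for HSP90.3, -1.10 for BAG6 and -1.08 for HSFB2A. HOP3 and HSFB2A had this call in 7 and 8 of 21 settings, and without wounding mock replicate 1 HOP3 stood at -0.93. HSC70-3 and HSP90.3 lost it with all 15 libraries in the fit (adjusted p = 0.23 and 0.17 from limma), and HSP17.8-CI with a pseudocount of 0.01 (0.094). For GSH minus wounding, 3 of 58 tested list genes were called lower and 0 higher, where 3.9% and 3% of all tested genes were. The difference was -4.70 for GOLS1, -1.48 for HSFB1 and -1.003 for BAG6, and BAG6 had this call in 16 of 21 settings.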

How the results depend on the processing

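The number of members called was recomputed under every alternative, and no member changed direction while called. After wounding it was 5 with HSFA2, which passed the filter only through its wounding libraries, and 4 without it. When single libraries were left out it was 4 to 5, since HSFA2 was not tested without any 1 wounding library. After GSH it was 0, and 0 to 3 when single libraries were left out, the 3 without GSH replicate 1. After Glu it was 0, 1 against wounding mock and 3 by the adjusted p alone. For GSH with Glu it was 0, and 0 to 2 when single libraries were left out. For the GSH effect minus the wounding effect it was 0, 2 with all 15 libraries in the fit, 2 with median ratio scaling and 0 to 2 when single libraries were left out. For the Glu effect minus the wounding effect it was 5, including HSFA2, which passed the filter only through its Glu and wounding libraries. It was 2 with all 15 libraries in the fit, in which the GSH libraries also set the spread.

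Calls over all genes and over the 5 other heat lists were recomputed as an addition after seeing the data. GSH with mock gave 205 calls over all genes, 84 without a filter, 103 without GSH replicate 2, 318 against wounding mock and 779 by the adjusted p alone. Glu with mock gave 207, then 316 and 324 with pseudocounts of 0.1 and 0.01, 136 without Glu replicate 1, 427 against wounding mock and 1712 by the adjusted p alone. Wounding gave 1347, and 3303 by the adjusted p alone. GSH with Glu gave 11, then 1 without a filter, 4 without a variance trend and 2 to 29 when single libraries were left out. Mock with wounding mock gave 39, then 19 without a filter, 82 with all 15 libraries in the fit and 0 to 66 when single libraries were left out. By the adjusted p alone, the GSH effect minus the wounding effect gave 2338 calls in place of 1202, and the Glu effect minus the wounding effect 2651 in place of 1272. In the lists, the 1 call after GSH became 0 without a filter or without GSH replicate 3 and 9 without GSH replicate 1. The 0 calls after Glu became 1 without Glu replicate 3, 3 against wounding mock and 12 by the adjusted p alone, and the 14 after wounding became 26. For GSH with Glu, 0 became 2 without GSH replicate 1. For the GSH effect minus the wounding effect, 3 became 6 without GSH replicate 3 and 5 without wounding mock replicate 3, and for the Glu effect minus the wounding effect, 10 became 6 with all 15 libraries in the fit.

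No label states a pairing of libraries by replicate number, and the main fits used none. Same-numbered deviations correlated between -0.16 and 0.21. In the wounding comparison they were 0.184, 0.212 and -0.0015 for replicates 1, 2 and 3. The highest with another number were -0.090, 0.096 and 0.0067 there. With a replicate block, the members called were 0 after GSH, 0 after Glu, 0 for GSH with Glu and 0 for mock with wounding mock. They were 5 after wounding, 0 for the GSH effect minus the wounding effect and 5 for the Glu effect minus the wounding effect. Both counts of 5 include HSFA2, which passed the filter only through its treated libraries. Depth per library is unknown, which limits what the values of the 5 small heat shock protein members near 0 can show.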
